A study of Mus musculus with 6 samples.

Results

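Genes that surround the tumour suppressor p53 were examined in neurospheres from adult Ts1Cje mice and disomic littermates. The set was chosen by gene name, with earlier results of these data known. It holds p53 itself (Trp53), its inhibitors Mdm2 and Mdm4, and the direct targets Ccng1, Sesn1, Sesn2, Zmat3, Aen, Phlda3 and Trp53inp1. Of these 10 genes, 9 have probe sets with a single gene symbol in the platform annotation used here, 24 probe sets in all, out of 34945 such probe sets for 18193 genes on the array. Trp53 was not analysed here. The cultures came from neural stem cells and progenitors of the walls of the lateral ventricles of female mice aged 84 days, grown for 7 days, and each of the 6 arrays held RNA of 1 culture. The 3 Ts1Cje arrays came from mice on a C57BL/6 background that carry a distal segment of chromosome 16 in 3 copies, and the 3 disomic arrays from C57BL/6 littermates without it. The Ts1Cje line was kept by crossing with C57BL/6 and genotyped by a neomycin cassette that it carries. None of the 9 genes lies on that chromosome: Mdm4 and Phlda3 are on chromosome 1, Zmat3 on 3, Sesn2 and Trp53inp1 on 4, Aen on 7, Mdm2 and Sesn1 on 10 and Ccng1 on 11.

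p53 is a transcription factor that is held at a low level in unstressed cells, because Mdm2, a ubiquitin ligase, marks it for degradation and Mdm4, a relative of Mdm2, blocks its activity. Damage to DNA and other stress frees p53 from both, and it then switches on genes that stop the cell cycle, repair DNA, slow growth or start cell death. Mdm2 is itself a target, which closes a feedback loop. In the adult subventricular zone p53 is known as a brake on the self-renewal and proliferation of neural stem cells.

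The deposited values are log2 intensities made by the authors with gcRMA. The difference between the genotypes is given as M, Ts1Cje minus disomic in mean log2 intensity, and the level as A, the mean of all 6 arrays. Probe sets with A above 5 were taken as expressed. The test was the moderated t of limma, and a t above 4 or below -4, the cut-off of the study's methods, was taken as a call. With 3 arrays against 3 an exact permutation test cannot give a p below 0.1. Markers of the labelled cells were present, with 9 of 10 genes of neural stem cells and astrocytes expressed, among them Nes and Sox2, while Gfap was not. Their mean log2 intensity was 10.71 to 10.76 on the disomic and 10.52 to 10.97 on the Ts1Cje arrays. None of 6 microglial, 4 ependymal and 5 vascular markers was expressed, 1 of 6 neuronal markers was (Map2), and 5 of 6 measured markers of the oligodendrocyte lineage were. Of 3 measured markers of transit-amplifying progenitors Mki67 was expressed, and Dlx1 and Dlx2 were not. On such mixed cultures a smaller share of cells with a transcript cannot be told apart from less of it per cell.

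Promoter windows of RefSeq (build GRCm38.p6), which run from 250 bases before to 50 bases after a start, were in the table for 7 of the 9 genes, all but Zmat3 and Trp53inp1, in 10 windows. The consensus half-site of p53 was searched on both strands, which for this palindrome are the same. A full site was 2 half-sites up to 13 bases apart with at most 2 mismatches. None of these could lie in the central CWWG of either half-site, where W is A or T. An exact half-site was held by 5 of the 10 windows, those of Mdm2 and Ccng1, both of Aen, which overlap and share the site, and 1 of 2 of Sesn1, against 8.36% of all 32851 windows. A full site was held by 1 window, of Sesn1, against 2.12% of all windows. The bases just before the site of Ccng1 resemble a half-site but depart from the consensus in this centre, so no full site was counted there. The sites are shown because p53 acts on its targets through this motif. Capitals mark the half-sites, and lower case the bases around them, 5′ to 3′ along the strand of the gene.
Mdm2, minus strand, site at chr10:117710935-117710944: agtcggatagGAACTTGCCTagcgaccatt
Ccng1, minus strand, site at chr11:40755462-40755471: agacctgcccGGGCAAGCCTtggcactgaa
Aen, plus strand, site at chr7:78895937-78895946: agccgaagccGGGCTTGTCCgggcaaggag
Sesn1, plus strand, full site at chr10:41887253-41887275: tggGCGCTTGGCCttcAAGCTTGTTTttgc
The site of Mdm2 begins at position -186 from its start and that of Ccng1 at -185. The site of Aen begins at -121 from one start and lies within the transcript from another. The full site of Sesn1 begins at -186, with 2 mismatches to the consensus and a spacer of 3 bases. The windows of Sesn2, Mdm4 and Phlda3 held no such letters. A match is a description of the sequence only.

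The regulators and targets of p53 as a set gave a single call between the genotypes, for Sesn2. Of the 24 probe sets 18 were expressed, at least 1 for each of the 9 genes, and the other 6 had A between 2.24 and 4.09. Among the 18, a moderated t above 4 was reached by 1, a probe set of Sesn2, and a t below -4 by none, where 0.965% and 0.812% of all 16371 expressed probe sets were called. All Ts1Cje arrays lay above all disomic arrays on 1 of the 18, against 5.53% of all expressed probe sets, and below them on 2, against 5.21%. With each gene taken by its brightest probe set, the median M of the 9 genes was 0.09, against 0.02 for all 8947 expressed genes. Of the 9, 6 had M above 0 and 3 below, where 53.9% of all expressed genes had M above 0. An M between -0.2 and 0.2 was found for 6 of the 9, where the quartiles of all expressed genes were -0.12 and 0.15. After Benjamini-Hochberg adjustment in limma none of the 18 passed (adjusted p = 1 for each), where 0.00611% of expressed probe sets did with a higher value in Ts1Cje and none with a lower. An unadjusted p under 0.05 was reached by the same Sesn2 probe set and no other, against 3.3% of expressed probe sets that were higher and 2.88% that were lower.

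**Figure D1:**
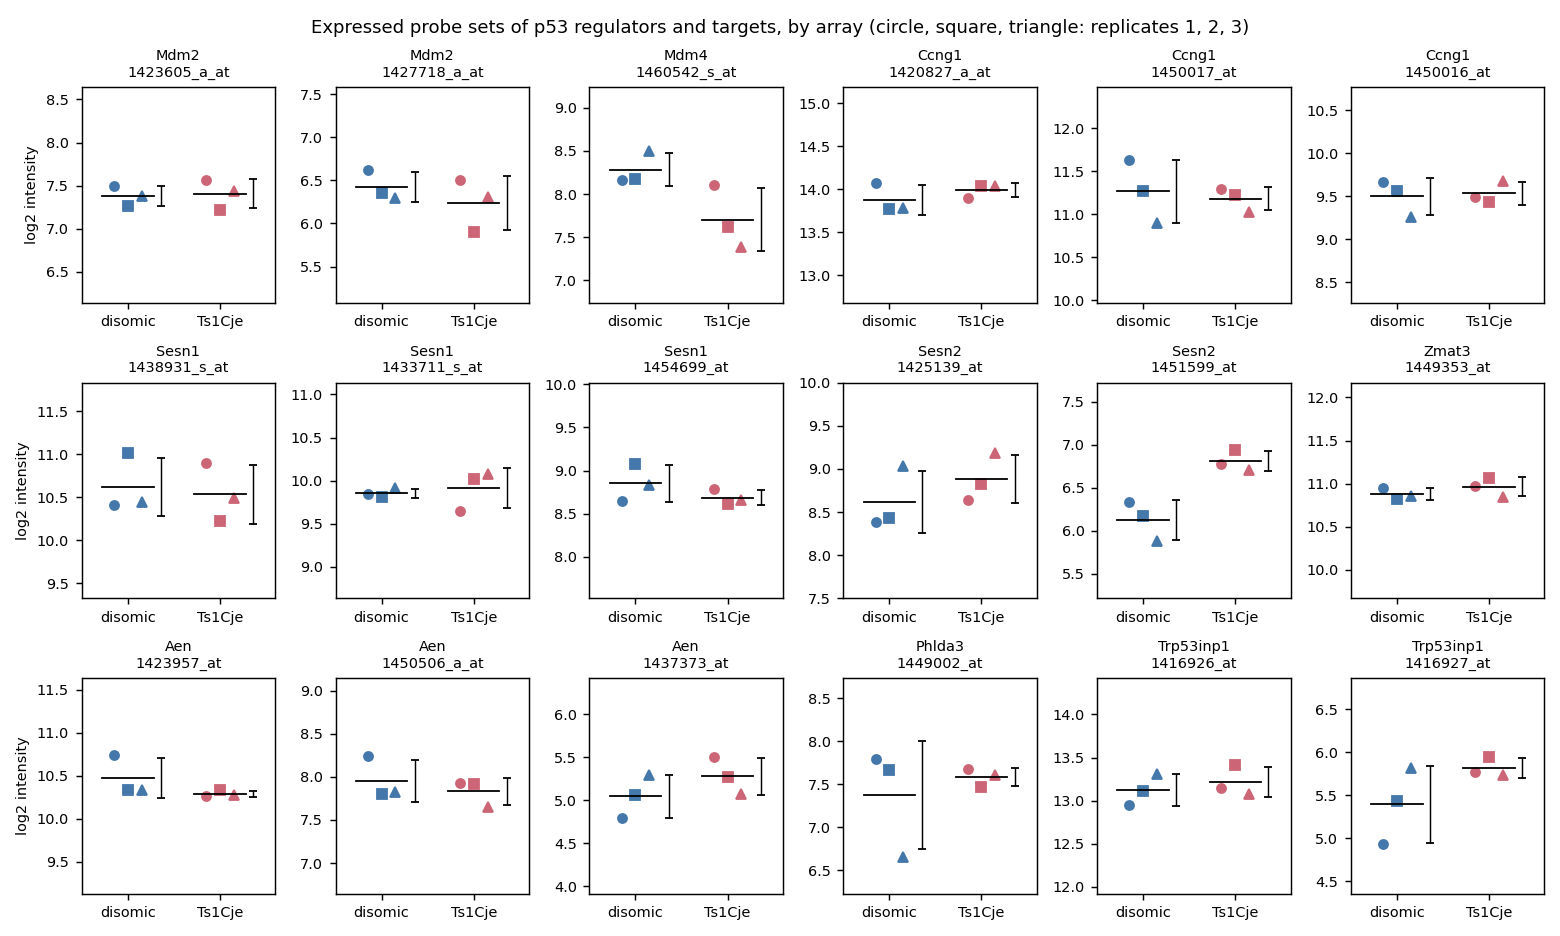
Log2 intensity of the 18 expressed probe sets of the 9 genes on each array, with a panel per probe set that spans 2.5 log2 units, symbols for replicates, a line for the mean and a bar beside it for the SD of 3 arrays. Sesn2 1451599_at shows groups that lie apart. Those of Mdm4 1460542_s_at are separate by a narrow margin only, and disomic replicate 3 lies low for Phlda3.

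Sesn2 encodes a sestrin, a protein that restrains mTORC1 when leucine is short and limits oxidative damage. Its probe set 1451599_at had log2 intensities of 6.33, 6.17 and 5.88 on the disomic arrays and 6.78, 6.94 and 6.71 on the Ts1Cje arrays. All Ts1Cje arrays were above all disomic arrays, and the spread within each genotype was smaller than the gap between the means. The means were 6.13 ± 0.23 and 6.81 ± 0.12 (SD, n = 3), so that M was 0.68 with a standard error of 0.14, a fold change of 1.6 (95% confidence interval 1.23 to 2.1, moderated t = 4.76, unadjusted p = 0.00729 in limma). A t at least as high was found on 90 of the 16371 expressed probe sets, so Sesn2 was 1 of many at that level.
The brighter probe set of Sesn2, 1425139_at, had 8.39, 8.43 and 9.03 on the disomic arrays and 8.64, 8.82 and 9.19 on the Ts1Cje arrays. Here the groups overlapped, because disomic replicate 3 was high where it had been the lowest on the other probe set. M was 0.27 with a standard error of 0.25 and a moderated t of 1.06, and the interval of the fold change ran from 0.753 to 1.92. The M of the 2 probe sets differed by 0.41 (exact permutation p = 0.5, two-sided). Their mean had M = 0.47, a fold change of 1.39, with a moderated t of 3.66, short of the call. The call of 1451599_at also did not hold when disomic replicate 2, Ts1Cje replicate 1 or Ts1Cje replicate 2 was left out, with t of 3.89, 3.83 and 3.75, while M stayed between 0.56 and 0.78.
Measures of RNA quality moved with the genotype as well. The log2 signal of the 3′ probe set of actin minus that of its 5′ probe set was 1.53, 1.83 and 1.66 on the disomic arrays and 1.94, 1.87 and 2.26 on the Ts1Cje arrays, and that of Gapdh was 2.28, 2.09 and 2.16 against 2.30, 2.44 and 2.29. On both the groups did not overlap, by narrow margins (1.83 against 1.87 for actin and 2.28 against 2.29 for Gapdh). The part of these controls in the difference of Sesn2 was not tested.

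Sesn1, the other sestrin of the set and a classical p53 target, was not called and had overlapping groups on each of its 3 expressed probe sets. Its brightest probe set, 1438931_s_at, had 10.41, 11.01 and 10.44 on the disomic and 10.90, 10.22 and 10.49 on the Ts1Cje arrays, with fully mixed groups and M = -0.08 (standard error 0.27). Another, 1433711_s_at, had 9.84, 9.81 and 9.91 against 9.65, 10.02 and 10.08. On that one Ts1Cje replicate 1 was the lowest array and the other Ts1Cje arrays the highest, which gave M = 0.06 with a moderated t of 0.46. Without Ts1Cje replicate 1 it had M = 0.19 and a moderated t of 4.77, a setting in which 2% of all expressed probe sets were above 4. The third expressed probe set, 1454699_at, had M = -0.17 (standard error 0.13). The intervals of these last probe sets, 0.815 to 1.34 and 0.698 to 1.13 in fold change, leave out a change of 1.5-fold either way, and that of the brightest, 0.576 to 1.55, does not. The suffix _s_at of 1438931_s_at, 1433711_s_at and the Mdm4 probe set marks probe sets that can match more than 1 transcript.

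Mdm4, the inhibitor of p53 that blocks its transactivation domain, had the lowest M of the set. Its only expressed probe set, 1460542_s_at, gave 8.16, 8.18 and 8.50 on the disomic arrays and 8.10, 7.62 and 7.38 on the Ts1Cje arrays. All Ts1Cje arrays were below all disomic arrays, by a narrow margin for Ts1Cje replicate 1, and the Ts1Cje arrays were spread more widely than the disomic ones. The means were 8.28 ± 0.19 and 7.70 ± 0.37 (SD, n = 3), with M = -0.58 and a standard error of 0.23, a fold change of 0.67. The moderated t was -2.51 (unadjusted p = 0.061 in limma) and the interval of the fold change ran from 0.437 to 1.03, so the difference did not pass. Without Ts1Cje replicate 1 M was -0.78 and the moderated t -4.88, and 2.79% of all expressed probe sets were then below -4. The actin and Gapdh controls narrowly separated the groups here too, and their part was not tested. The other 3 probe sets of Mdm4, with A between 2.26 and 4.09, had M between -0.05 and 0.07.

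Mdm2, the ubiquitin ligase of the feedback loop and a common readout of p53 activity, had an M close to 0 at its brightest probe set. This probe set, 1423605_a_at, had 7.49, 7.26 and 7.38 on the disomic and 7.56, 7.22 and 7.44 on the Ts1Cje arrays. The groups covered the same range, with M = 0.03 (standard error 0.12) and an interval of the fold change from 0.821 to 1.26. On 1427718_a_at the values were 6.62, 6.35 and 6.30 against 6.51, 5.90 and 6.31. Ts1Cje replicate 2 was the lowest array on both, and the second probe set had M = -0.19 (standard error 0.20, interval of the fold change 0.609 to 1.27).

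Ccng1 encodes cyclin G1, a strongly p53-dependent gene whose product brings a phosphatase to Mdm2. Its brightest probe set, 1420827_a_at, had 14.07, 13.77 and 13.78 on the disomic and 13.90, 14.04 and 14.04 on the Ts1Cje arrays. Disomic replicate 1 was the highest of all and the other disomic arrays the lowest, with M = 0.12 (standard error 0.10) and an interval of the fold change from 0.893 to 1.32. The other 2 probe sets, 1450017_at and 1450016_at, had M = -0.09 and M = 0.04, with overlapping groups.
Zmat3, a zinc finger protein that binds RNA and takes part in growth arrest by p53, had the narrowest interval of the set. On 1449353_at the values were 10.95, 10.82 and 10.86 on the disomic and 10.97, 11.07 and 10.85 on the Ts1Cje arrays. The groups overlapped, with M = 0.09 (standard error 0.07) and an interval of the fold change from 0.932 to 1.21.

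Among the targets that act in cell death or in survival signals, none was called. Aen, a nuclease that takes part in p53-dependent apoptosis, had 10.74, 10.34 and 10.33 on the disomic arrays and 10.26, 10.33 and 10.28 on the Ts1Cje arrays at its brightest probe set, 1423957_at. The Ts1Cje arrays were all lower, but the nearest arrays were only 0.0019 apart, and disomic replicate 1 stood above the other 5. M was -0.18 (standard error 0.13), and -0.05 without that array. Its other expressed probe sets had M = -0.12 (1450506_a_at) and M = 0.23 (1437373_at), of opposite sign, with overlapping groups on both.
Phlda3, which keeps Akt from the membrane, had 7.79, 7.67 and 6.65 on the disomic and 7.68, 7.47 and 7.61 on the Ts1Cje arrays. Disomic replicate 3 stood below all the other arrays, and the sign of M rests on it, with M = 0.21 (standard error 0.35) with all arrays and -0.15 without it. The interval of its fold change, 0.6 to 2.24, was the widest of the set.
Trp53inp1, a nuclear protein that promotes the apoptotic form of p53 and also acts in autophagy, had 12.95, 13.11 and 13.31 on the disomic and 13.15, 13.41 and 13.08 on the Ts1Cje arrays at 1416926_at. The groups overlapped, with M = 0.09 (standard error 0.14). Its dim probe set, 1416927_at, had 4.93, 5.43 and 5.82 against 5.77, 5.95 and 5.74. There disomic replicate 3 lay among the Ts1Cje arrays while the other disomic arrays were below them, with M = 0.43 (standard error 0.26, interval of the fold change 0.836 to 2.17).

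**Figure D2:**
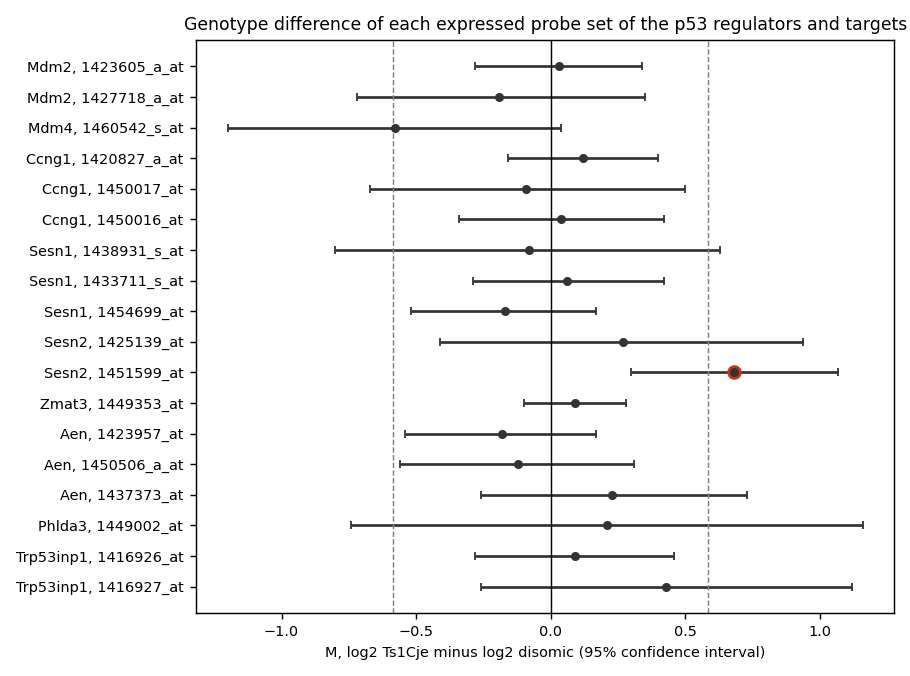
M with its 95% confidence interval from limma for the 18 expressed probe sets of the 9 genes, with dashed lines at a 1.5-fold change either way and a red point for a moderated t past 4. Only Sesn2 1451599_at has an interval that leaves out 0, and 9 of the 18 intervals lie wholly between the dashed lines.

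How large a change could have gone unseen differs between the genes. The confidence interval held 0 for 17 of the 18 probe sets. For 9 of them, from 6 genes (Mdm2, Ccng1, Sesn1, Zmat3, Aen and Trp53inp1), it also left out a change of 1.5-fold in either direction. Mdm4, Sesn2 and Phlda3 had no such probe set. The interval reached a median of 0.41 log2 units either side of M on the 18, against 0.48 on all expressed probe sets. The share of all expressed probe sets with an interval within 1.5-fold was not counted. By the brightest probe set alone the interval left out that change for 5 genes, with Sesn1 no longer among them. In each of the 6 genes except Zmat3 another expressed probe set had an interval that reached 1.5-fold. Of the 6 genes with several expressed probe sets, 4 had M of both signs (Mdm2, Ccng1, Sesn1 and Aen), as the plot of M by probe set shows.

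Cdkn1a, which encodes the cell cycle inhibitor p21 and is the best known target of p53, was set beside these genes. Its brightest probe set had 13.42, 12.67 and 12.57 on the disomic arrays and 12.69, 13.05 and 13.09 on the Ts1Cje arrays, with disomic replicate 1 above and the other disomic arrays below the Ts1Cje arrays, M = 0.06 and a standard error of 0.29.

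Other genes of the pathway, taken from lists of its regulators and of further targets, gave no call either. Each was represented by its brightest probe set. The lists too were chosen with earlier results of these data known, so counts over them are a description only. Of 28 upstream regulators and cofactors 25 were expressed, 6 with M above 0 and 19 below, with a median M of -0.11. Of all expressed genes 53.9% had M above 0. Averaged over the 25, the deviation from each gene's mean was 0.04, 0.11 and 0.08 on the disomic arrays. On the Ts1Cje arrays it was 0.04, -0.13 and -0.13, so Ts1Cje replicate 1 was level with a disomic array. None had a t past 4, where 1.13% of all expressed genes were above and 0.693% below. All Ts1Cje arrays lay below all disomic arrays for 4 of the 25, against 5.16% of all expressed genes, and above for none, against 6.12%. An unadjusted p under 0.05 in limma was found for 2 of the 25, Cop1 and Chek2, both lower, against 2.87% of all expressed genes that were lower, and adjusted p was 1 for all of them.
Chek2, the checkpoint kinase that phosphorylates p53 after DNA breaks, had 8.36, 8.52 and 7.96 on the disomic and 7.93, 7.28 and 7.64 on the Ts1Cje arrays. The groups nearly touched, with M = -0.66 (standard error 0.24, moderated t = -2.75). Atm, the kinase upstream of Chek2, had 8.39, 8.48 and 8.45 against 8.37, 8.12 and 7.99. Ts1Cje replicate 1 was close to the disomic arrays, and M was -0.28 (standard error 0.11, moderated t = -2.58). With single arrays left out the moderated t ran from -7.05 to -1.91. The former was without Ts1Cje replicate 1, where 2.79% of all expressed probe sets were below -4. A dimmer probe set of Atm had M = -0.19 with overlapping groups. Cop1, a ubiquitin ligase that can act on p53, had 11.31, 11.31 and 11.07 against 11.00, 11.02 and 10.84. The margin between the groups was small, with M = -0.28 (standard error 0.09) and a moderated t of -2.94. With single arrays left out it ran from -5.20 to -2.16. The former was without disomic replicate 3, where 1.94% of all expressed probe sets were below -4. The fourth gene without overlap was Daxx, a histone chaperone that binds Mdm2, with M = -0.28 and a moderated t of -1.88, named after its values were seen. The actin and Gapdh controls narrowly separated the groups as for Sesn2, and their part was not tested.

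Of 51 further targets on the lists 36 were expressed, 18 with M above 0 and 18 below, with a median M of 0.00. None had a t past 4, and 3 lay wholly higher and 1 wholly lower on the Ts1Cje arrays, against 6.12% and 5.16% of all expressed genes. An unadjusted p under 0.05 was found for 3 higher (Bid, Rrm2b and Ddit4) and 1 lower (Pcna), against 3.73% and 2.87% of all expressed genes. After adjustment in limma none of them passed, where 0.0112% of expressed genes were called higher. The 8 expressed genes of cell cycle arrest, with Cdkn1a among them, had a median M of -0.21, with 7 below 0. Among all expressed genes 53.9% had M above 0. Averaged over the 8, the deviation from each gene's mean was 0.33, 0.02 and -0.06 on the disomic arrays. On the Ts1Cje arrays it was -0.14, -0.14 and -0.00, so the groups overlapped and disomic replicate 1 stood apart. Gtse1, which is expressed in late cell cycle phases and takes p53 out of the nucleus, had M = -0.48 (standard error 0.21), and the groups overlapped. Rprm and Gadd45a, which both act on the step into mitosis, had the same M of -0.33, with overlapping groups. The M of Gadd45a was -0.13 without disomic replicate 2, with a moderated t of -0.49. Without disomic replicate 3 it was -0.60 with a moderated t of -4.66, where 1.94% of all expressed probe sets were below -4. The 9 expressed genes of cell death had a median M of 0.07. Pmaip1, a BH3-only protein that antagonises Mcl1, had 9.68, 10.24 and 8.84 on the disomic and 8.99, 9.06 and 8.63 on the Ts1Cje arrays, with M = -0.69 and a standard error of 0.41. The disomic arrays were widely spread and disomic replicate 3 lay among the Ts1Cje arrays. Without it the M of Pmaip1 was -1.06 with a moderated t of -4.09, where 1.94% of all expressed probe sets were below -4. Without disomic replicate 2 the M of Pmaip1 was -0.37 and its moderated t -1.08. Bid, another BH3-only protein, had M = 0.07 (standard error 0.02) and a moderated t of 2.78. With single arrays left out this t ran from 2.04 to 4.29. The latter was without Ts1Cje replicate 3, where 1.51% of all expressed probe sets were above 4. Trp53i11 had M = -0.06.

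The 7 expressed genes of DNA repair and nucleotide supply had a median M of -0.03 and had M of both signs. Rrm2b, the p53-dependent subunit of ribonucleotide reductase, had 9.67, 9.64 and 9.58 on the disomic and 9.84, 9.74 and 9.95 on the Ts1Cje arrays. The groups did not overlap, M was 0.21 (standard error 0.06) and the moderated t 3.38. With single arrays left out the moderated t ran from 2.54 to 5.30. The latter was without Ts1Cje replicate 2, where 1.48% of all expressed probe sets were above 4. The 2 dim probe sets of Rrm2b had M = 0.32 and M = -0.04 with standard errors of 0.57 and 0.50. Pcna, the sliding clamp of DNA replication, had 12.37, 12.26 and 12.34 against 12.12, 11.68 and 11.80. It was lower on every Ts1Cje array, with M = -0.45 (standard error 0.13), and the moderated t of -3.46 missed the cut-off. With single arrays left out the moderated t of Pcna ran from -9.70 to -2.59. The former was without Ts1Cje replicate 1, with M = -0.58, where 2.79% of all expressed probe sets were below -4. Xpc, a damage sensor of excision repair, had M = -0.16 (standard error 0.27).
The 12 expressed genes of metabolism and redox defence had a median M of 0.23, with 10 above 0 and 2 below. Of all expressed genes 53.9% had M above 0. Averaged over the 12, the deviation from each gene's mean was 0.01, -0.18 and -0.19 on the disomic arrays. On the Ts1Cje arrays it was -0.01, 0.09 and 0.29, so the 2 arrays numbered replicate 1 hardly differed. Ddit4, an inhibitor of mTORC1 as Sesn2 is, had 8.68, 7.54 and 7.97 on the disomic and 9.39, 8.96 and 9.67 on the Ts1Cje arrays. All Ts1Cje arrays were higher, but the disomic arrays were widely spread. M was 1.27 with a standard error of 0.38, a fold change of 2.42 (95% confidence interval 1.2 to 4.88), and the moderated t of 3.39 did not pass. With single arrays left out the moderated t ran from 2.55 to 5.39. The latter was without disomic replicate 1, with M = 1.58, where 1.56% of all expressed probe sets were above 4. Prkab1 and Prkab2, the beta subunits of the energy sensor AMPK, had M = 0.30 and M = 0.27, with overlapping groups, and a dimmer probe set of Prkab2 had M = 0.05 (standard error 0.03). The other gene without overlap was Sod2, the mitochondrial superoxide dismutase, with M = 0.18 and a moderated t of 2.10, named after its values were seen. Its dimmer probe sets had M = 0.18, with overlapping groups, and M = 0.36, without overlap. The RNA quality controls given for Sesn2 moved with the genotype in the same arrays, and their part in these differences was not tested.

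**Figure D3:**
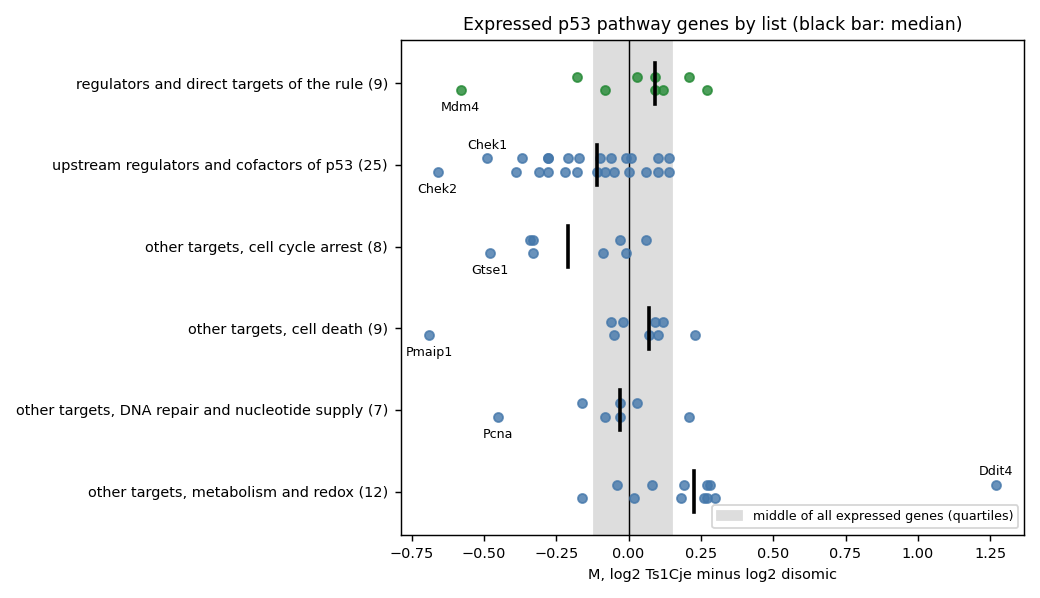
M of every expressed gene by list, with a point per gene at its brightest probe set, a black bar for the median and the grey band from -0.12 to 0.15 for the quartiles of all expressed genes. The 9 genes of the rule have a median of 0.09, with Mdm4 apart at -0.58, and Ddit4 lies apart at 1.27.

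**Figure D4:**
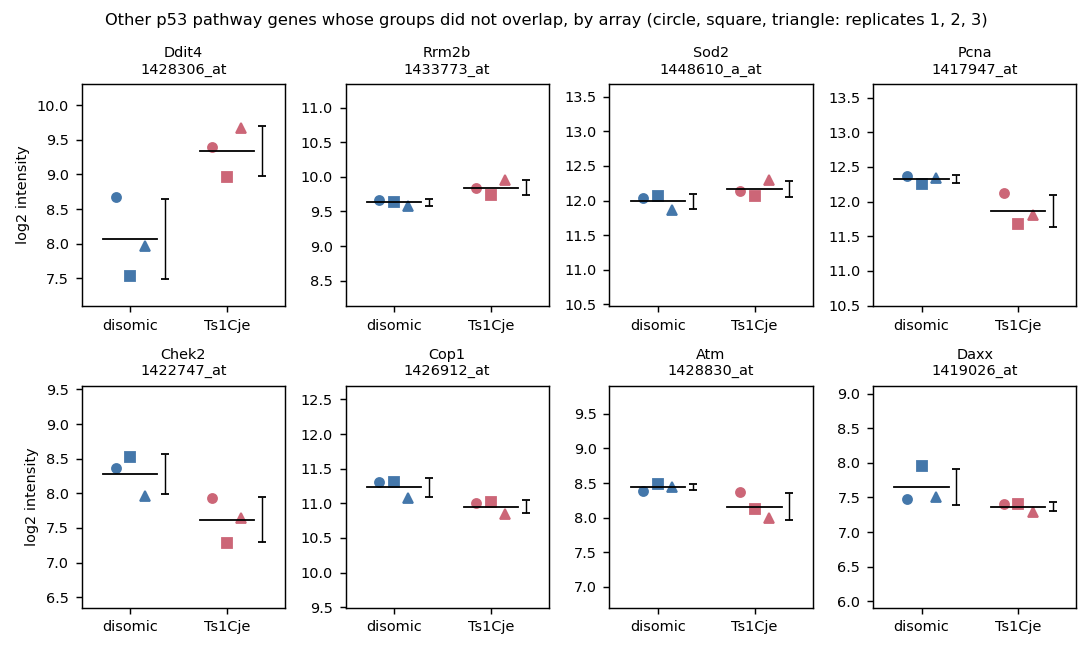
Log2 intensity on each array of the 8 other pathway genes whose groups did not overlap, with symbols for replicates, a line for the mean and a bar for the SD of 3 arrays, in panels of 3.2 log2 units. Ddit4 shows the widest gap and the widest spread, and Rrm2b and Sod2 differ by 0.21 and 0.18 in the mean.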

How the data were processed

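RNA of 3 Ts1Cje and 3 disomic neurosphere cultures was labelled in 2 cycles and hybridised to Affymetrix mouse genome arrays, 1 culture per array. The values the authors deposited are log2 intensities per probe set, made with gcRMA (background correction from base composition, normalization between arrays, summary per probe set). The version is not given in the sources used here, and these steps cannot be repeated from the values, which run from 2.23 to 15.89 and are compressed near the lower end. The number of arrays limits the precision. The groups came from the sample titles. All 45037 probe sets other than the 64 controls were fitted with genotype as the only term in limma 3.58.1 (R 4.3.3), with moderated t, two-sided p-values and Benjamini-Hochberg adjustment over all of them. The prior degrees of freedom were 0.336, so each probe set is judged mostly by its own spread. The study describes pairs of mutant and littermate cultures, but the labels do not say which replicate numbers form a pair. Gene names are those of the platform annotation, for probe sets with 1 symbol (932 with several and 9160 with none were left unnamed), and chromosomes come from RefSeq (GRCm38.p6).

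The 9 genes were all named, with every probe set. On the other lists the 3 expressed genes with the largest absolute moderated t were named, with any past 4, and Cdkn1a. A planned comparison of other genes with the pattern of Trp53 was not made. Members and lists were chosen with earlier results of these data known. The steps were tested on simulated data. Promoters were searched with Python 3.11.15, tables made with pandas 2.3.3 and figures drawn with matplotlib 3.10.9. The alternatives tried were a block for the replicate number, each array left out, cyclic loess, array weights, a prior variance following intensity, other levels of A and the mean of a gene's probe sets.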

Additional observations from a re-analysis of the deposited data

How the results depend on the processing

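The median M of the 9 genes stayed between 0.02 and 0.11 under every alternative run, and between 0.03 and 0.10 when an array was left out. The count of their probe sets with a moderated t above 4 stayed at 1 with cyclic loess, array weights, a prior variance following intensity and other levels of A, and was 0 to 1 when an array was left out. The count below -4 was 0 under these settings and 0 to 1 without an array, the 1 being Mdm4 without Ts1Cje replicate 1. In that setting the probe set called above 4 was of Sesn1, not of Sesn2, and 2% of all expressed probe sets were above 4 and 2.79% below -4.

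With the replicate number as a block the count above 4 was 2, both probe sets of Sesn2 (t of 6.26 and 4.22), and the calls on the other lists were 4 for upstream regulators, 2 for cell cycle arrest, 1 for cell death, 1 for repair and 2 for metabolism. The block also raised the share of all expressed probe sets called, to 3.05% above 4 and 3.56% below -4. The numbers were not taken as pairs, since the labels do not say which arrays are littermates. The deviations of same-numbered arrays from their group means correlated at -0.17, -0.03 and 0.13, and those of other combinations at -0.37 to 0.40. With 3 arrays per group these values depend on each other and cannot show which arrays form a pair.

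Without single arrays the calls ranged from 0 to 4 for upstream regulators, the 4 without Ts1Cje replicate 1, and from 0 to 1 for each other list. Leaving out an array also raised the share of all expressed probe sets called, to between 1.47% and 2.04% above 4 and between 0.898% and 2.79% below -4, from 0.965% and 0.812% with all arrays. The range of M crossed 0 for Mdm2 1423605_a_at (-0.05 to 0.12), Ccng1 1450017_at (-0.27 to 0.10) and 1450016_at (-0.08 to 0.13), Sesn1 1438931_s_at (-0.26 to 0.11) and 1433711_s_at (-0.02 to 0.19), Aen 1450506_a_at (-0.20 to 0.02), Phlda3 (-0.15 to 0.42), Trp53inp1 1416926_at (-0.01 to 0.18), Xpc (-0.37 to 0.10) and Cdkn1a (-0.10 to 0.33). With the mean of its expressed probe sets Mdm2 had M = -0.08. The cause of these changes was not tested. Values near the lower end of the scale limit what can be seen for dim genes.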

Other observations

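Several genes of the p53 pathway gave no signal that would allow a comparison. Of the genes on the pathway lists, 14 had probe sets but none with A above 5, and for 9 of them every array was below 3. Among these were Cdkn2a, whose product Arf frees p53 from Mdm2, at 2.23 on all 6 arrays, and the family members Trp63 and Trp73, at 2.23 to 2.31 and 2.23 to 2.25. The targets Plk3 (2.49), Ptprv (2.23) and Steap3 (2.39) also had the same value on every array at this rounding. Bbc3, which encodes the BH3-only protein Puma, stood at 4.46 on 5 arrays and at 5.16 on Ts1Cje replicate 3.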
